A study of Homo sapiens with 4 samples.

Results

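The genes of MHC class I antigen presentation were followed in a pair of breast cancer cell lines, BT-20 and MDA-MB-468, that carried either a control shRNA or an shRNA against QPRT. They are 9 genes, chosen by name from the 50653 genes of the deposited table and matched by Ensembl identifier: the heavy chains HLA-B, HLA-C and HLA-E, the light chain B2M, the peptide loading genes TAP1, TAP2 and TAPBP, and the immunoproteasome subunits PSMB8 and PSMB9. Both are established human lines of the triple-negative type, which lacks the hormone receptors and HER2. BT-20 was grown in EMEM and MDA-MB-468 in Leibovitz L-15, each with serum, so cell line and medium cannot be told apart. In all 4 groups the cells carried a lentiviral shRNA vector, named as pLKO.1-puro for the QPRT shRNA, and were selected with puromycin. QPRT encodes the last enzyme of the kynurenine pathway, which makes NAD from tryptophan. Each combination of cell line and shRNA gave 1 library of total RNA, so an effect of less QPRT and any other effect of the QPRT shRNA cannot be told apart.

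MHC class I molecules carry peptides of the proteins made inside a cell to its surface, where CD8 T cells and natural killer cells read them. Proteasomes cut the peptides, the TAP transporter brings them into the endoplasmic reticulum, and tapasin helps to load them onto a heavy chain paired with beta-2-microglobulin. Most nucleated cells express these genes at a basal level, and interferon gamma, acting in part through IRF1 and NLRC5, raises most of them together. HLA-B and HLA-C are among the most polymorphic genes in humans, whereas HLA-E varies little and is a ligand of natural killer cell receptors.

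Values are FPKM, the fragments on a gene scaled by the length of its transcript and the size of its library. The 4 libraries held between 10322000 and 10945948 fragments. Fold changes are differences of log2(FPKM + 1), a scale that understates the change of low genes, and all 9 genes were among the 14321 tested, whose mean FPKM was 1 or more. QPRT itself was at 0.163 times its control level in BT-20 and 0.156 times in MDA-MB-468. All 9 markers of breast epithelium that were listed were above 0 in each library, EPCAM at 148 to 359 FPKM and KRT8 at 1548 to 4214 FPKM. In BT-20, however, KRT14 was at 0.330 and 0.161 FPKM and KRT17 at 2.76 and 2.51 FPKM with control and QPRT shRNA. In MDA-MB-468, KRT14 was at 5.76 and 40.6 FPKM and KRT17 at 237 and 373 FPKM. PTPRC, which marks leukocytes, was at 0.340 FPKM or less. Gut epithelium markers summed to 56.6 FPKM with control shRNA and 19.3 FPKM with QPRT shRNA in BT-20, and to 122 FPKM and 20.03 FPKM in MDA-MB-468. Plasma cell markers summed to 35.7 and 17.1 FPKM in BT-20 and to 86.4 and 16.6 FPKM in MDA-MB-468. The part of these transcripts in the results below was not tested.

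Between the cell lines, the heavy chains HLA-B, HLA-C and HLA-E and both TAP transporter genes were higher in MDA-MB-468, whereas B2M, TAPBP and PSMB9 were higher in BT-20. HLA-B differed most, with 291 ± 114 FPKM in MDA-MB-468 and 31.4 ± 2.80 FPKM in BT-20 (SD, n = 2 libraries a line, which differ in shRNA). The line difference was fitted with limma over the 4 libraries, with shRNA as a block. The 2 libraries of a line stood in for replicates, and the p-values rest mainly on spread pooled over genes of similar level. At a Benjamini-Hochberg adjusted p under 0.05, 5 of the 9 genes were higher in MDA-MB-468, beside 30.7% of all tested genes, and 3 were lower, beside 24.4% of all tested genes. Both libraries of MDA-MB-468 lay above both of BT-20 for the same 5 genes, beside 42.8% of all genes, and below them for the same 3, beside 34.7%. Calls between the lines were therefore common throughout the transcriptome. PSMB8 was the 1 gene of the 9 whose libraries overlapped.

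**Figure D1:**
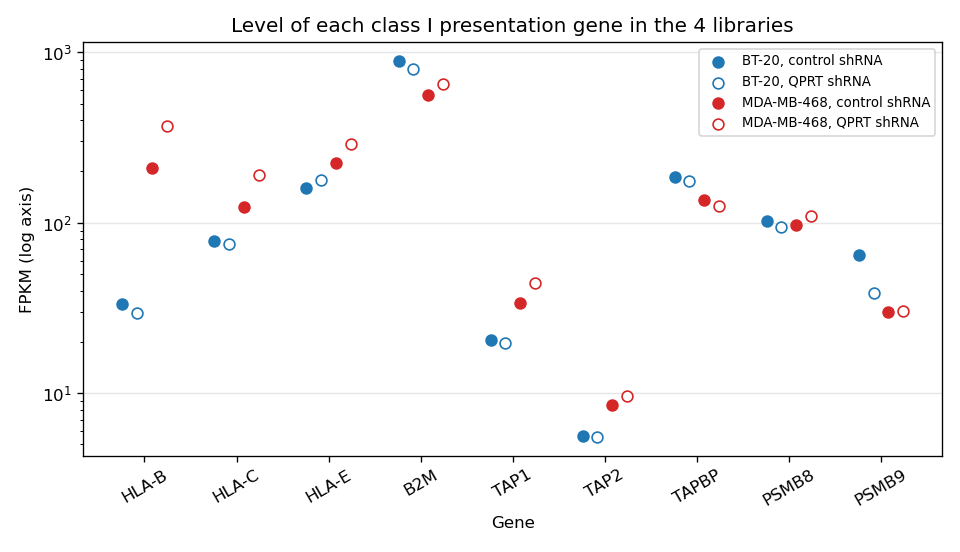
FPKM of the 9 genes on a log axis, 1 point for each library, in blue for BT-20 and red for MDA-MB-468, filled for control shRNA and open for QPRT shRNA. HLA-B runs from 29.4 to 372 FPKM with the cell lines far apart, whereas the 4 points of PSMB8 lie between 94.0 and 110 FPKM.

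The heavy chain HLA-B (ENSG00000234745) presents peptides to CD8 T cells. In GRCh38 its protein-coding gene model spans 31269491 to 31357188 of chromosome 6 on the minus strand. Its level was 33.4 FPKM in BT-20 with control shRNA and 29.4 FPKM with QPRT shRNA, and 211 FPKM and 372 FPKM in MDA-MB-468. Both MDA-MB-468 libraries stood far above both BT-20 libraries, and the highest was the one with QPRT shRNA. The log2 difference between the lines was 3.12 (standard error 0.200 and limma adjusted p = 2.33e-52). The adjusted p ran from 1.58e-55 to 0.00754 over the alternative settings. HLA-B was 6.31-fold higher in MDA-MB-468 with control shRNA and 12.65-fold higher with QPRT shRNA. It was the 1 gene of the 9 that differed at least 2-fold between the lines with both shRNAs, beside 13.3% of all tested genes that were higher by this much and 9.99% that were lower.

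HLA-C (ENSG00000204525), a heavy chain that is also a ligand of killer cell receptors, is annotated on chromosome 6 from 31268749 to 31272130 on the minus strand, and most of that stretch lies inside the long gene model of HLA-B. Its level was 78.2 and 74.6 FPKM in BT-20 with control and QPRT shRNA, and 124 and 191 FPKM in MDA-MB-468. The lines did not overlap, and the library of MDA-MB-468 with QPRT shRNA was again the highest. The log2 difference between the lines was 1.00 (standard error 0.199 and limma adjusted p = 2.05e-06), and 1.59-fold with control shRNA became 2.56-fold with QPRT shRNA. In BT-20 the level of HLA-C was above that of HLA-B, at an HLA-B to HLA-C ratio of 0.426 and 0.394, and in MDA-MB-468 it was below, at 1.69 and 1.95.

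HLA-E (ENSG00000204592; chromosome 6, 30489467 to 30494205, plus strand), the conserved heavy chain that presents leader peptides of other heavy chains, differed less. It was at 160 FPKM with control shRNA and 179 FPKM with QPRT shRNA in BT-20, and at 225 and 288 FPKM in MDA-MB-468. The lines did not overlap, with the library carrying QPRT shRNA the higher one in each line. Between the lines the log2 difference was 0.59 (standard error 0.192, adjusted p = 0.00541 from limma). The adjusted p was 0.0660 without a filter on low values.

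HLA genes resemble each other and can share reads. Of the windows of 50 bases in the longest GENCODE transcript, 2.5% of those of HLA-B, 6.7% of those of HLA-C and 5.1% of those of HLA-E were also found in a transcript of another gene, and 2.0% of those of HLA-B in HLA-C. The annotated exons of HLA-B overlapped those of other genes over 18.9% of their bases, of which most (17.8%) belonged to a pseudogene on the opposite strand and 35 bases to HLA-C. The HLA alleles of the lines were not analysed here, and reads from an allele that differs from the reference can be lost in alignment. Summed, HLA-B and HLA-C were at 112 and 104 FPKM in BT-20 and at 335 and 563 FPKM in MDA-MB-468, which is 3.001-fold higher in MDA-MB-468 with control shRNA and 5.41-fold higher with QPRT shRNA. The sum therefore differed between the lines less than HLA-B alone.

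The proximal promoters of HLA-B and HLA-C are shown because these genes of 1 locus had the largest log2 differences toward MDA-MB-468 among the members. They come from RefSeq (GRCh38.p14), which gave a window for 8 of the 9 genes, and run from 250 bases before to 50 bases after the annotated start. Capitals mark matches to the IRF core AANNGAAA and to the NF-kappaB consensus, searched on both strands, which may overlap each other.
HLA-B (chr6:31357130-31357429, minus strand): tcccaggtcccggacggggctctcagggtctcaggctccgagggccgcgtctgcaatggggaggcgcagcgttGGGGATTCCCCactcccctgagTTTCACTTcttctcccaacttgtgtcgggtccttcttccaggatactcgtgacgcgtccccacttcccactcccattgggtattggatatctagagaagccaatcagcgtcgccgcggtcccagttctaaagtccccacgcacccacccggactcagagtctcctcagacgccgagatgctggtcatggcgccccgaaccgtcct
HLA-C (chr6:31272043-31272342, minus strand): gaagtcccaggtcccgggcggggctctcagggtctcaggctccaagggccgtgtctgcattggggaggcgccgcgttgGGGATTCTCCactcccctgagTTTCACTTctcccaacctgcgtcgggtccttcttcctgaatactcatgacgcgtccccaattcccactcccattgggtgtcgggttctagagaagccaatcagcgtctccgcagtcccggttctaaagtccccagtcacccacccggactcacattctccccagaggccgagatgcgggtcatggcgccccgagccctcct
The pair of windows was identical at 269 of 304 alignment columns (88.5%). Each held an IRF core, 155 bases before the start in HLA-B and 151 bases before it in HLA-C, with an NF-kappaB consensus 177 and 172 bases before the start. Of 35116 RefSeq promoters of this length, 22.8% held the IRF core and 11.3% the NF-kappaB consensus, and of the 10 windows of the 8 members, in which TAP1 and PSMB8 have a pair of starts each, 7 held the first and 5 the second. A match is a description of the letters and no sign that a factor is bound.

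B2M (ENSG00000166710; chromosome 15, 44711487 to 44718877, plus strand) encodes the light chain shared by all class I heavy chains and was the most abundant member in each of the 4 libraries. It was at 888 and 796 FPKM in BT-20 with control and QPRT shRNA, and at 561 and 652 FPKM in MDA-MB-468. Both BT-20 libraries lay above both MDA-MB-468 libraries, so that B2M differed between the lines in the opposite direction to the heavy chains. The log2 difference was -0.47 (standard error 0.187, adjusted p = 0.0221 from limma), and the adjusted p was 0.166 without a filter on low values and 0.0891 for eBayes without the trend. The promoter of B2M is shown because its letters resemble those of the heavy chains in kind: IRF cores begin 142 and 136 bases before the start and an NF-kappaB consensus 125 bases before it.
B2M (chr15:44711267-44711566, plus strand): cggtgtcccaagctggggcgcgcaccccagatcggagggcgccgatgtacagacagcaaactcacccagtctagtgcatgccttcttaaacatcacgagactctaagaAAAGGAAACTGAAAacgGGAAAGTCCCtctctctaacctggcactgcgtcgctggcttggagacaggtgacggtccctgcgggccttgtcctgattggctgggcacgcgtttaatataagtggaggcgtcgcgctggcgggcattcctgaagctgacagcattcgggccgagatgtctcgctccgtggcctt

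Within each library, the summed FPKM of the 3 heavy chains was 0.306 and 0.355 times that of B2M in BT-20 with control and QPRT shRNA, and 0.999 and 1.30 times in MDA-MB-468. The FPKM of B2M thus exceeded the sum of the heavy chains clearly in BT-20, was level with it in the MDA-MB-468 control library and lay below it with QPRT shRNA. The ratio was 3.26-fold higher in MDA-MB-468 with control shRNA and 3.67-fold higher with QPRT shRNA. HLA-B alone was at 0.208 and 0.165 times the level of HLA-E in BT-20 and at 0.935 and 1.29 times in MDA-MB-468. These ratios compare levels per length of transcript in 1 library each and were not tested.

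**Figure D2:**
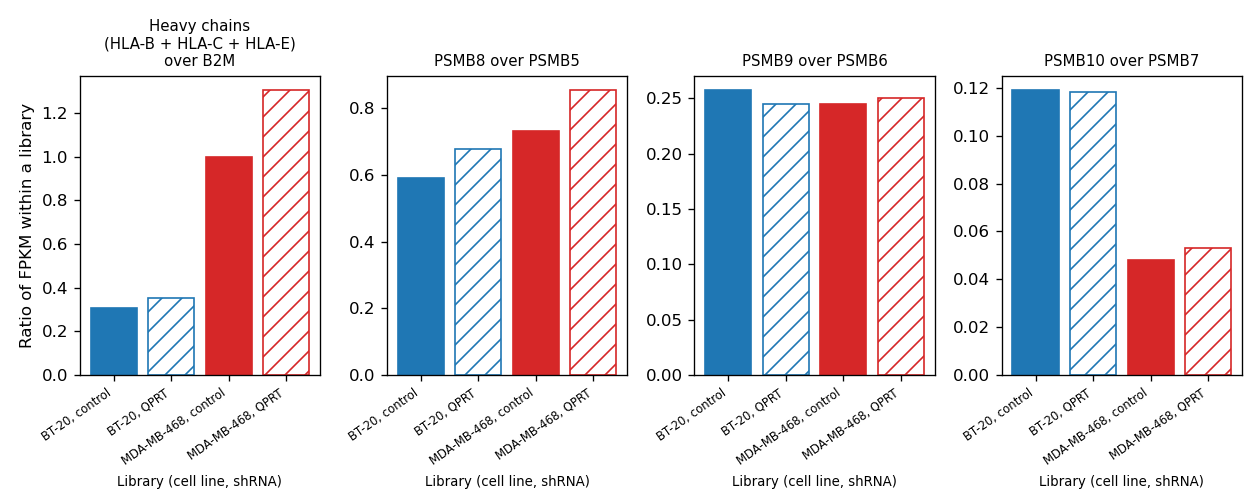
Ratios of FPKM within each of the 4 libraries, as bars from 0, for heavy chains over light chain and for the 3 immunoproteasome subunits over their constitutive counterparts (filled, control shRNA; hatched, QPRT shRNA). The heavy chain ratio is 0.306 and 0.355 in BT-20 beside 0.999 and 1.30 in MDA-MB-468, and PSMB10 over PSMB7 is, with control shRNA, 0.119 beside 0.0483, whereas PSMB9 over PSMB6 stays between 0.244 and 0.257.

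The peptide loading genes did not differ between the lines in 1 direction. TAP1 (ENSG00000168394; chromosome 6, 32845209 to 32853978, minus strand), 1 chain of the peptide transporter, was at 20.5 and 19.6 FPKM in BT-20 and at 33.9 and 44.2 FPKM in MDA-MB-468. TAP2 (ENSG00000204267; chromosome 6, 32821833 to 32838780, minus strand), the other chain, was at 5.63 and 5.54 FPKM in BT-20 and at 8.51 and 9.60 FPKM in MDA-MB-468, the lowest level of the 9 genes in each library. For both transporter genes the MDA-MB-468 libraries lay above the BT-20 libraries, with log2 differences of 0.92 for TAP1 (standard error 0.223, adjusted p = 0.000131 from limma) and 0.61 for TAP2 (standard error 0.263, adjusted p = 0.0385 from limma). The adjusted p of TAP2 ran from 0.0215 to 0.128 over the alternative settings. TAP2 shared 32.3% of its exonic bases with a second annotated gene on the same strand, so its count is uncertain. TAP1 was at 3.64 and 3.54 times the level of TAP2 in BT-20 and at 3.99 and 4.61 times in MDA-MB-468.

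TAPBP (ENSG00000231925; chromosome 6, 33299694 to 33314387, minus strand) encodes tapasin, which bridges the TAP transporter and the empty class I molecule. It was at 186 and 176 FPKM in BT-20 and at 136 and 125 FPKM in MDA-MB-468. Both BT-20 libraries were the higher ones, as for B2M. Between the lines its log2 difference was -0.47 (standard error 0.195, adjusted p = 0.0292 from limma), and the adjusted p was 0.0926 without a filter on low values and 0.0889 for eBayes without the trend. In BT-20 the libraries of TAPBP and HLA-E overlapped in level, and in MDA-MB-468 those of TAPBP and HLA-C.

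The immunoproteasome subunits PSMB8 and PSMB9 replace the constitutive subunits PSMB5 and PSMB6 in cells exposed to interferon gamma and change which peptides are cut. PSMB8 (ENSG00000204264; chromosome 6, 32840717 to 32844703, minus strand) was at 103 and 94.0 FPKM in BT-20 and at 96.4 and 110 FPKM in MDA-MB-468, with the lines overlapping. The line difference on the log2 scale was 0.06 (standard error 0.200, adjusted p = 0.805 from limma) and -0.03 after the trend on GC content and length was removed. PSMB9 (ENSG00000240065; chromosome 6, 32844136 to 32859585, plus strand) was at 65.0 and 38.7 FPKM in BT-20 and at 30.1 and 30.5 FPKM in MDA-MB-468. The lines did not overlap for PSMB9, and the BT-20 library with control shRNA stood apart at the top. The log2 difference was -0.71 (standard error 0.215, adjusted p = 0.00246 from limma), and the adjusted p was 0.105 without a filter on low values. PSMB8 shared 20.6% of its exonic bases with PSMB8-AS1 on the opposite strand. The strand setting of the counting is not given in the sources used here, so reads of the pair cannot be told apart in the shared stretch. PSMB8-AS1 also overlapped 9.5% of the exonic bases of TAP1, on the opposite strand, and 5.7% of those of PSMB9, on the same strand. PSMB8 and PSMB9 overlapped each other over 139 bases, on opposite strands.

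Set beside its constitutive counterpart in the same library, PSMB9 was at 0.257 and 0.245 times the level of PSMB6 in BT-20 and at 0.244 and 0.251 times in MDA-MB-468. PSMB6 was at 253 and 158 FPKM in BT-20 and at 123 and 122 FPKM in MDA-MB-468, so that it too was highest in the BT-20 library with control shRNA and next highest in the other BT-20 library. PSMB8 was at 0.590 and 0.678 times the level of PSMB5 in BT-20 and at 0.733 and 0.854 times in MDA-MB-468. PSMB10, the remaining immunoproteasome subunit, was at 53.3 and 51.8 FPKM in BT-20 and at 9.98 and 10.6 FPKM in MDA-MB-468, a log2 difference of -2.25 (standard error 0.227, adjusted p = 1.14e-21 from limma). The 3 immunoproteasome subunits therefore did not differ between the lines in parallel.

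By their RefSeq starts, TAP1 and PSMB9 are transcribed away from each other. In GENCODE, by contrast, the PSMB9 model begins at 32844136 and spans all of the TAP1 model (32845209 to 32853978). The RefSeq starts are 488 bases apart for the upstream of the 2 annotated TAP1 starts. The windows at these starts are shown because these neighbours differed between the lines in opposite directions. Capitals again mark the IRF core and the NF-kappaB consensus.
TAP1 (chr6:32853655-32853954, minus strand): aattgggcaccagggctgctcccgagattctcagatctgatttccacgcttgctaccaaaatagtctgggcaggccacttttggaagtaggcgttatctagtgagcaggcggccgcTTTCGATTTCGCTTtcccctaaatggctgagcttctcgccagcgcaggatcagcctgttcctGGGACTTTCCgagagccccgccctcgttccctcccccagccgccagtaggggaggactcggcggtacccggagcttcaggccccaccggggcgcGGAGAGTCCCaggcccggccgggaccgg
PSMB9 (chr6:32853942-32854241, plus strand): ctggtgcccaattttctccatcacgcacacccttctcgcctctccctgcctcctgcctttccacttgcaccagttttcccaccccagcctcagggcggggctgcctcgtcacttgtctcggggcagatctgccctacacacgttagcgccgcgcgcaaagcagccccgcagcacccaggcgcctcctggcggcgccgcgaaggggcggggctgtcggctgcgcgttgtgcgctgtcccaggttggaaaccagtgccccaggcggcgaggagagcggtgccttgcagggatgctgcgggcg
The windows overlap by 13 bases at their outer ends. This TAP1 window held IRF cores 134 and 128 bases before its start and an NF-kappaB consensus 72 bases before it. A further consensus lay after the start. The PSMB9 window held neither set of letters, nor did the window at the other TAP1 start. The matches before the TAP1 start lie between the starts of TAP1 and PSMB9, beyond the edge of the PSMB9 window. Their absence thus holds for that window alone and not for the stretch between the genes. The ratio of TAP1 to PSMB9 was 0.314 and 0.507 in BT-20 but 1.13 and 1.45 in MDA-MB-468.

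Ranked by level, the members in BT-20 ran from B2M through TAPBP and HLA-E, which overlapped, to PSMB8, HLA-C, PSMB9, HLA-B, TAP1 and TAP2. In MDA-MB-468 the order was B2M, then HLA-B and HLA-E, which overlapped, then HLA-C and TAPBP, which overlapped, and then PSMB8, TAP1, PSMB9 and TAP2. HLA-B moved from position 7 of 9 in BT-20 to position 2 in MDA-MB-468. Here 2 libraries of a line count as overlapping when the ranges of the genes cross.

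With QPRT shRNA, no member changed by the test over both cell lines. In the limma fit with cell line as a block, 0 of the 9 members reached an adjusted p under 0.05, beside 0.628% of all tested genes, and 0 an unadjusted p under 0.05, beside 4.80% of them. With limma-voom on the fragments 1 of the 9 had an unadjusted p under 0.05, beside 4.19% of genes, and 0 an adjusted one. The largest mean log2 changes were -0.36 for PSMB9 (standard error 0.215, adjusted p = 1 from limma), 0.32 for HLA-B (standard error 0.200, adjusted p = 1) and 0.27 for HLA-C (standard error 0.199, adjusted p = 1). Over the alternative settings no adjusted p of a member was under 0.974. With 1 library per line and shRNA, whether the shRNA acted differently in the lines could not be tested.

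Within each line, 0 of the 9 genes differed at least 2-fold with QPRT shRNA, beside 1.70% of all tested genes in BT-20 and 1.89% of them in MDA-MB-468. At 1.5-fold, 1 member was lower in BT-20 (PSMB9), beside 3.27% of all genes at least 1.5-fold lower, and 2 members were higher in MDA-MB-468 (HLA-B and HLA-C), beside 5.46% of all genes at least 1.5-fold higher. In BT-20, 8 of the 9 genes had a lower value with QPRT shRNA and HLA-E a higher one, beside 56.4% of all genes that were higher. The median log2 difference was -0.07 beside 0.05 over all genes. In MDA-MB-468, 8 of the 9 had a higher value, beside 51.5% of all genes, and TAPBP a lower one. The median there was 0.22 beside 0.01 over all genes. For 7 of the 9 genes the signs were opposite in the lines, and the share of all genes with opposite signs was not counted.

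**Figure D3:**
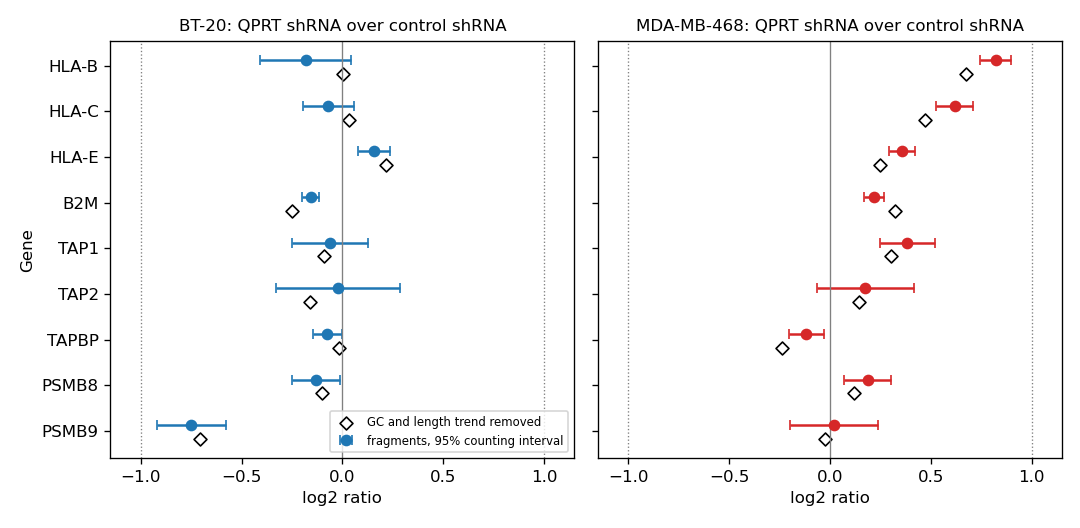
Log2 ratio of QPRT shRNA over control shRNA for the 9 genes in BT-20 (left) and MDA-MB-468 (right). Circles are ratios of fragments scaled by the library totals with exact 95% counting intervals, diamonds are differences of log2(FPKM + 1) with the trend on GC content and length subtracted, and dotted lines mark 2-fold. No point passes 2-fold, with PSMB9 lowest in BT-20 and HLA-B highest in MDA-MB-468.

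These differences come from 1 library on each side, and each ratio of fragments below was divided by the ratio of the library totals. In bulk RNA, fewer cells that express a gene and less RNA per cell cannot be told apart. The 95% intervals of the fragment ratios (exact Clopper-Pearson, for counting error only) excluded 0 for 5 of the 9 genes in BT-20, beside 43.5% of all genes, and for 7 of the 9 in MDA-MB-468, beside 44.0%, with fragments of the other genes rounded from mean transcript lengths. Such intervals narrow as fragments rise, and the shares over all genes were not matched to the level of the members. HLA-B in MDA-MB-468 had 2270 fragments with control shRNA and 3781 with the QPRT hairpin, a scaled log2 ratio of 0.82 (interval 0.75 to 0.90), and in BT-20 it had 349 and 316, a scaled log2 ratio of -0.18 (interval -0.41 to 0.04). HLA-C in MDA-MB-468 had 1664 and 2408 fragments, a scaled log2 ratio of 0.62 (interval 0.53 to 0.71), and in BT-20 it had 1016 and 995 (interval -0.20 to 0.06). Both classical heavy chains thus had a larger scaled count in the MDA-MB-468 library with QPRT shRNA, and their intervals in BT-20 included 0.

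HLA-E was the 1 member with a higher scaled count with QPRT shRNA in each line, at a log2 ratio of 0.16 in BT-20 (interval 0.08 to 0.24) and 0.36 in MDA-MB-468 (interval 0.29 to 0.42). TAPBP was the 1 member lower in each line, at -0.07 in BT-20 (interval -0.15 to -0.0026) and -0.12 in MDA-MB-468 (interval -0.20 to -0.03). B2M was at -0.16 in BT-20 (interval -0.20 to -0.11) and 0.22 in MDA-MB-468 (interval 0.17 to 0.27). PSMB8 had the same pattern of signs as B2M, at -0.13 (interval -0.25 to -0.01) and 0.19 (interval 0.07 to 0.30).

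In BT-20, PSMB9 had 749 fragments with control shRNA and 458 with the QPRT hairpin, a scaled log2 ratio of -0.75 (interval -0.92 to -0.58), and in MDA-MB-468 it had 357 and 341, a scaled log2 ratio of 0.02 (interval -0.20 to 0.24). PSMB6 also had fewer fragments with QPRT shRNA in BT-20, 1910 and 1227, with 958 and 893 in MDA-MB-468. TAP1 had 808 and 994 fragments in MDA-MB-468, a scaled log2 ratio of 0.38 (interval 0.25 to 0.52), and 473 and 466 in BT-20 (interval -0.25 to 0.13). The intervals of TAP2 included 0 in both lines, running from -0.33 to 0.28 in BT-20, with -0.07 to 0.42 for the MDA-MB-468 pair.

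GC content moved with the shRNA differences in these libraries. Across 14232 genes the log2 difference with QPRT shRNA ran against GC content in BT-20 (Spearman rho -0.283) and with it in MDA-MB-468 (0.288), as a description over genes of the same libraries. The transcripts of HLA-B, HLA-C and HLA-E have a GC content of 60.1%, 61.3% and 58.7%, and those of B2M 40.6%. After a smooth trend on GC content and length was removed, HLA-B was at 0.67 in MDA-MB-468 and at 0.002 in BT-20, HLA-C at 0.47 and 0.03, and HLA-E at 0.25 and 0.22. B2M was then at 0.32 in MDA-MB-468 and -0.25 in BT-20, farther from 0 in each line, and PSMB9 in BT-20 was at -0.71. The signs then were 3 higher and 6 lower in BT-20 and 7 higher and 2 lower in MDA-MB-468, beside 49.3% and 49.8% of all genes that were higher. Scaling to TPM gave 2 higher and 7 lower in BT-20, with 7 and 2 in MDA-MB-468, beside 62.5% and 49.1% of all genes that were higher. The sign changed in at least 1 setting for HLA-B, HLA-C and TAP2 in BT-20 and for PSMB9 in MDA-MB-468.

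Other genes of the class I pathway were taken from a list of 16, of which 15 were tested, and differed between the lines in both directions. Of these, 5 were higher and 7 lower in MDA-MB-468 at an adjusted p under 0.05 from limma, beside 30.7% and 24.4% of all tested genes. For QPRT shRNA 0 were called, beside 0.628% of all tested genes. The nonclassical heavy chain HLA-F was at 1.54 and 2.60 FPKM in BT-20 and at 24.4 and 41.9 FPKM in MDA-MB-468, a log2 difference of 3.45 (standard error 0.256, adjusted p = 1.73e-39 from limma). Its libraries fell in the same order as those of HLA-E, with QPRT shRNA 1.69-fold above control in BT-20 (15 and 26 fragments) and 1.72-fold above it in MDA-MB-468 (245 and 397 fragments). For HLA-F the test over both lines gave an unadjusted p of 0.0139 and an adjusted p of 0.645 for QPRT shRNA from limma.

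ERAP1, which trims peptides in the endoplasmic reticulum, was at 8.93 and 12.1 FPKM in BT-20 and at 41.1 and 36.4 FPKM in MDA-MB-468, a log2 difference of 1.80 (standard error 0.232, adjusted p = 9.46e-14 from limma). PSMB7, the constitutive counterpart of PSMB10, was at 448 and 438 FPKM in BT-20 and at 207 and 200.2 FPKM in MDA-MB-468. PSMB10 was thus at 0.119 and 0.118 times the level of PSMB7 in BT-20 and at 0.0483 and 0.0529 times in MDA-MB-468. The peptide trimming gene was therefore higher where the TAP genes were, and PSMB10 was lower there.

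**Figure D4:**
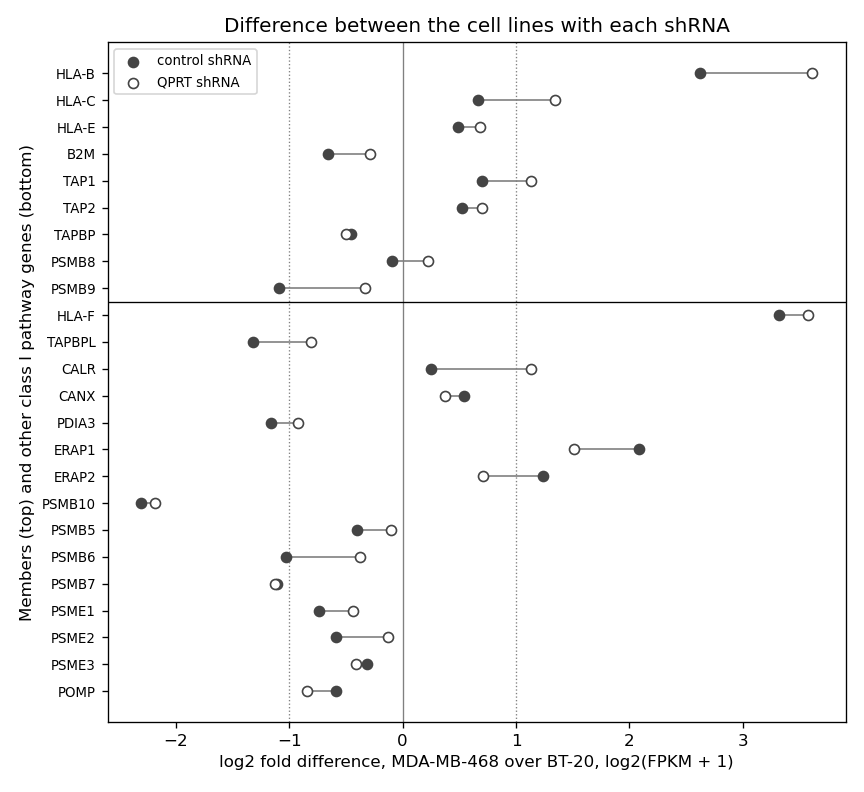
Log2 difference between MDA-MB-468 and BT-20 on the log2(FPKM + 1) scale with control shRNA (filled) and QPRT shRNA (open), for the 9 members above the line and 15 other class I pathway genes below it. Dotted lines mark 2-fold. HLA-B and HLA-F lie farthest to the right with both shRNAs and PSMB10 farthest to the left.

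A list of 23 regulators of class I genes and of interferon signalling was tested in full. Of these, 8 were higher and 2 lower in MDA-MB-468 at an adjusted p under 0.05 from limma, beside 30.7% and 24.4% of all tested genes. None was called for QPRT shRNA, beside 0.628% of all tested genes. NLRC5, a transactivator of class I promoters, was at 6.92 and 7.11 FPKM in BT-20 and at 8.97 and 14.8 FPKM in MDA-MB-468. Its highest library was the one in which HLA-B, HLA-C, HLA-E, TAP1, TAP2, PSMB8 and HLA-F were also highest. B2M, TAPBP and PSMB9 were instead highest in the BT-20 library with control shRNA. A part of NLRC5 in these levels was not tested. For NLRC5 the log2 line difference was 0.64 (standard error 0.256, adjusted p = 0.0234 from limma), and that for QPRT shRNA was 0.35 (standard error 0.256, adjusted p = 1 from limma). Both chains of the interferon gamma receptor were higher in MDA-MB-468, IFNGR1 at 45.4 and 66.1 FPKM in BT-20 beside 225 and 242 FPKM, and IFNGR2 at 6.03 and 7.27 FPKM beside 25.3 and 29.9 FPKM. TYK2, a kinase of the type I interferon receptor, was at 55.6 and 59.2 FPKM in BT-20 and at 353 and 382 FPKM in MDA-MB-468.

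Negative regulators of interferon signalling did not share a direction. PTPN2, a phosphatase of the JAK kinases, and USP18, which restrains type I interferon signalling, had log2 line differences of 1.57 and 1.54 (adjusted p = 3.74e-13 and 3.87e-08 from limma), whereas SOCS3, an inhibitor of JAK kinases, was at -1.16 (adjusted p = 3.97e-06). SOCS1, another such inhibitor, was at 2.15 and 1.35 FPKM in BT-20 and at 2.91 and 6.01 FPKM in MDA-MB-468. Its log2 line difference was 0.945 (adjusted p = 0.00272 from limma), so of these negative regulators SOCS3 alone was lower in MDA-MB-468. IRF9, a transcription factor of type I interferon signalling, was at 1.28 and 1.55 FPKM in BT-20 and at 1.03 and 2.74 FPKM in MDA-MB-468, on 10 to 25 fragments. RFXAP, a subunit of the RFX complex on MHC promoters, was at 7.43 and 13.0 FPKM in BT-20 and at 6.44 and 6.08 FPKM in MDA-MB-468.

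MHC class II genes present peptides taken up from outside the cell. Of 10 listed genes 6 were tested, and 5 of these were lower and 0 higher in MDA-MB-468 at an adjusted p under 0.05 from limma, beside 24.4% and 30.7% of all tested genes. The one not called was CD74, with an adjusted p of 0.276 from limma. Of the called genes, HLA-DQB1, HLA-DPA1 and CIITA stayed under 1 FPKM in both MDA-MB-468 libraries. They passed the filter on mean FPKM only through BT-20, which fixed their direction in advance, so the count of lower genes is partly set by the filter. The summed level of the listed class II genes was 47.2 and 45.8 FPKM in BT-20 and 11.1 and 8.08 FPKM in MDA-MB-468, with control and QPRT shRNA. For example, HLA-DMA, which loads class II molecules, had a log2 difference of -2.30 (standard error 0.263, adjusted p = 4.16e-17 from limma). None of the tested class II genes was called for QPRT shRNA, beside 0.628% of all tested genes.

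Markers of leukocytes, which express class I genes strongly, were followed as a list of 12, of which 3 were tested. CD2 and MS4A1 were at 0 in all 4 libraries, and 8 of the 12 stayed under 1 FPKM in each of them. The summed level was 196 and 176 FPKM in BT-20 and 29.7 and 38.3 FPKM in MDA-MB-468, of which LCP1 made up 193 and 172 FPKM in BT-20. CD14 was at 1.29 and 2.44 FPKM in BT-20 and at 15.4 and 26.1 FPKM in MDA-MB-468, and so ordered the libraries as HLA-F did. Of the tested markers, 8 of 9 for gut and 3 of 4 for plasma cells were called for QPRT shRNA by limma, beside 0.628% of all genes. With the GC content and length trend subtracted 1 gut marker and 0 plasma cell markers were called, and 0 of either without a filter on low values or with shRNA as the lone factor.

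The median profile of the 9 members, each centred over the libraries on the log2(FPKM + 1) scale, was -0.29 and -0.22 in BT-20, beside 0.12 and 0.38 in MDA-MB-468. By Euclidean distance over the 4 libraries, the 5 genes nearest to it among the 14321 tested were MRPS7, MID1, LYSMD2, ZNF766 and KDM2B, at distances of 0.0203 to 0.0456. The nearest member was HLA-E, at 0.116, and 77 genes lay nearer than that. HLA-B, at 2.65, and PSMB9, at 1.36, lay farthest, so the median profile described the members poorly.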

How the data were processed

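Total RNA of 4 libraries, 1 per cell line and shRNA, was prepared with an Illumina TruSeq RNA kit and sequenced on an Illumina NovaSeq. The authors deposited FPKM per Ensembl gene. The submitters' processing notes name FastQC, MultiQC, CASAVA, TopHat2 2.0.12 and HTSeq 0.6.1, without roles. The genome build, annotation and strand setting are not given in the sources used here. Coordinates of genes and exons are from GENCODE 29 (GRCh38), which was also used for names and lengths. Promoter windows and their starts are from RefSeq (GRCh38.p14).

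Groups came from the sample titles. Fragments were recovered from FPKM as whole numbers within 0.02 for 97.6% to 97.8% of genes with a single transcript and for all 9 members. For 5 members the mean GENCODE length served, and for the others the shortest length that gave whole numbers in the 4 libraries, searched from 200 to 5999 bases. Ratios of fragments were divided by the ratio of library totals. Fragments carry no molecular identifiers, so counting intervals cover counting error only.

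For 14321 genes whose mean FPKM reached 1, log2(FPKM + 1) was fitted by limma 3.58.1 under R 4.3.3 with cell line and shRNA as terms, eBayes with a trend and Benjamini-Hochberg adjustment. It has 1 residual degree of freedom per gene. The lines stand in for replicates of the shRNA and the shRNAs for replicates of the line. eBayes pools the residual spread over genes of similar level, and p-values measure mainly this pooled spread, not that of a gene's own libraries. The line standard error was 0.200 for HLA-B, with log2 differences of 2.62 and 3.62 with control and QPRT shRNA. It was 0.195 for TAPBP, with -0.453 and -0.495. The DESeq2 test named in the study's methods was not run on these FPKM values, and limma-voom on recovered fragments served as the count-based alternative. The fit was also run on simulated data with known changes. Their noise was drawn from the pooled spread of the fit itself, so that run cannot show whether this spread is right. Within a line no test was made.

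Alternatives were a pseudocount of 0.1, no filter, a mean FPKM of at least 5, upper quartile and TPM scaling, subtraction of a lowess trend on GC content and length (fraction 0.3, values for 99.4% of genes), HLA-B and HLA-C summed, the compared factor alone, eBayes without the trend, limma-voom and a 1.5-fold threshold. Members, lists and motifs were chosen with earlier results of these data known. Besides the members, the text names QPRT, list genes that differed at least 2-fold between the lines with both shRNAs or 1.5-fold with QPRT shRNA, PSMB5 and PSMB6, defining markers, and the 5 genes nearest to the median profile. HLA-DMA, HLA-DQB1, HLA-DPA1, CIITA, PSMB8-AS1, LCP1 and CD14 were named after their values or overlaps were seen. The values of 1 regulator are not reported here, and the counts of its list include it. Scripts ran under Python 3.11.15 with scipy 1.17.1, pandas 2.3.3, statsmodels 0.14.6, Biopython 1.88, numpy 2.4.6 and matplotlib 3.10.9.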

Additional observations from a re-analysis of the deposited data

Results flagged for a closer look

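Among the members, B2M and PSMB8 stood out because their counting intervals lay on opposite sides of 0 in the cell lines. The log2 fold change of B2M with QPRT shRNA was 0.375 higher in MDA-MB-468 than in BT-20, and that of PSMB8 was 0.316 higher. With 1 library per cell line and shRNA, the difference between the lines was not tested for either gene.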

How the results depend on the processing

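The count of members called between the lines by limma was 8 and fell to 3 without a filter on low values (over all genes, from 7893 of 14321 to 5691 of 28439), to 7 once the trend on GC content and length was subtracted and to 6 for eBayes without the trend. The 3 were HLA-B, HLA-C and TAP1, and the cause was not tested. At 1.5-fold instead of 2-fold, 1 member differed with QPRT shRNA in BT-20, 2 in MDA-MB-468 and 3 between the lines with both shRNAs, beside 0, 0 and 1. The 3 were higher in MDA-MB-468, as were 23.0% of all genes at that threshold, with 17.8% lower. With that trend subtracted the limma log2 change of TAP2 with QPRT shRNA was -0.0081 and the line difference of PSMB8 was -0.033, both with the opposite sign and neither called in any setting. Of the limma values 168 kept direction and call and 8 lost the call, and of the values within a line or shRNA 204 stayed within the counting interval and 16 left it. Over all genes, 90 were called for QPRT shRNA, beside 45 at a mean FPKM of at least 5, 2 with the trend subtracted, and 0 without a filter (807 at an unadjusted p under 0.05) or for shRNA as the lone factor (17 at an unadjusted p under 0.05). The limma fit paired the libraries by cell line for the shRNA and by shRNA for the line, and the labels carry no replicate numbers for another pairing. With 1 library a group no replicate was left out.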
